A study of Mus musculus with 8 samples.

Results

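The WNT signalling module was described in the kidneys of diabetic mice that received recombinant FGF4 (rFGF4) or vehicle. Its 50 members, of the 55401 genes in the deposited table, were picked out by a rule on gene symbols that uses no measured value. They are the 19 WNT ligands, the 10 Frizzled receptors, the LRP co-receptors *Lrp5* and *Lrp6*, 10 secreted antagonists and related proteins (*Dkk1* to *Dkk4*, *Dkkl1*, *Sfrp1*, *Sfrp2*, *Sfrp4*, *Sfrp5* and *Wif1*), the 4 R-spondins, the 3 receptors *Lgr4*, *Lgr5* and *Lgr6*, and *Axin1* and *Axin2*. Each library held the poly(A) RNA of the kidney of 1 mouse, and there were 4 rFGF4-treated mice (numbered 1, 2, 3 and 5) and 4 vehicle-treated mice (numbered 2, 3, 4 and 5). Expression was given as FPKM, the fragments of a gene divided by its exon length and by the size of the library, so that levels can be set side by side between genes. The table holds no read counts, so depth and counting error are unknown, and the precision of each value can be judged only from the spread over 4 mice.

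rFGF4 is an N-terminally truncated human FGF4 made in bacteria. The vehicle group carries the label *db*/*db* model and the treated group the label rFGF4 treatment, and the design text of the series places both groups in *db*/*db* mice, which lack a working leptin receptor and become obese and diabetic. The study's own account of the sequencing instead names mice made diabetic with streptozotocin (STZ), and which of these was used could not be worked out from the values. In either case the study describes male mice and 1 mg/kg rFGF4 by intraperitoneal injection every other day for 8 weeks. The *db*/*db* mice, on the C57BLKS/J background, were 12 weeks old at the start, and accounts of the age of the STZ mice differ. No non-diabetic kidney was analysed here, so nothing in these data sets the levels against a healthy kidney. Whole-kidney RNA mixes all cell types of the organ, and fewer cells of a type cannot be told apart from less RNA per cell.

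WNT ligands are secreted lipid-modified proteins that bind a Frizzled receptor together with LRP5 or LRP6. In the canonical branch this holds back the Axin-containing complex that marks beta-catenin for destruction, and beta-catenin then acts with TCF/LEF factors in the nucleus. In the non-canonical branches the same receptors signal through calcium or the planar polarity proteins. SFRP proteins and WIF1 bind WNT ligands outside the cell, DKK1 and DKK2 bind LRP5 and LRP6, and R-spondins with LGR4, LGR5 or LGR6 protect Frizzled receptors from removal. In the embryonic kidney *Wnt9b* and *Wnt4* drive nephron formation, *Wnt11* takes part in ureteric branching and *Wnt7b* in the formation of the medulla. In the adult organ the pathway is known from tubular injury, fibrosis and podocyte disease.

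The most abundant transcripts of the module were those of an antagonist and of receptors, and no ligand reached their level. The 4 members with the highest mean FPKM over the 8 mice were the antagonist *Sfrp1* (23.6), *Lgr4* (22.0), *Fzd4* (17.4) and *Fzd1* (12.2), whereas the highest ligand, *Wnt7b*, had a mean of 2.42. *Sfrp1* lay above 87.9% and *Wnt7b* above 33.8% of the 15150 genes that were tested, which are those that reached 0.5 FPKM in 4 or more of the 8 mice. Of the 50 members, 22 met that limit, namely 7 ligands, 7 Frizzled receptors, both LRP co-receptors, 4 antagonists, *Lgr4* and *Axin1*. The other 28 members were too low for the test across all genes. *Wnt1*, *Wnt8a*, *Dkk4* and *Rspo2* were listed at 0 in all 8 libraries, and 31 members were above 0 in every library.

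**Figure D1:**
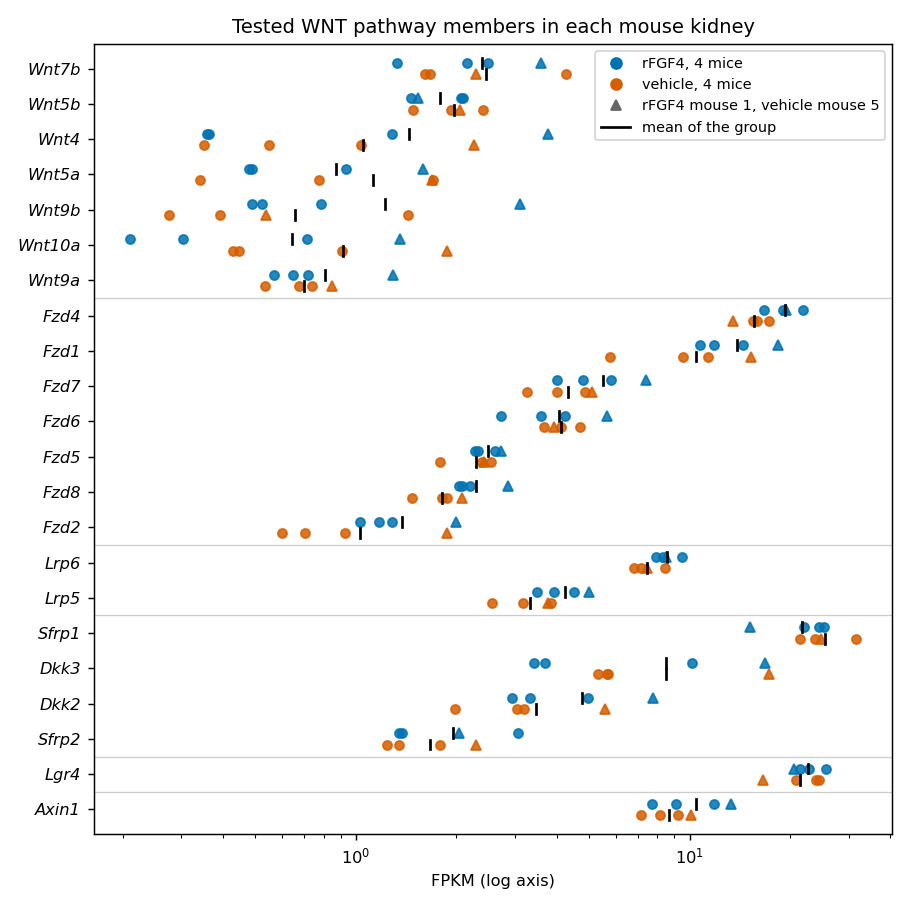
FPKM of the 22 tested members on a logarithmic axis, one point per mouse, blue for rFGF4 and orange for vehicle, with black bars at the group means and triangles for rFGF4 mouse 1 and vehicle mouse 5. The points of the 2 groups overlap for every member, Sfrp1 and Lgr4 lie highest, and the 7 ligands at the top have means of 0.753 to 2.42 FPKM over the 8 mice.

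The comparison asked whether rFGF4 treatment changed the renal transcript levels of these genes. No member passed the threshold that the study used, a fold change of 1.5 or more either way together with p under 0.05 before adjustment, in limma's moderated test on log2(FPKM + 1), which understates the change of low genes. Among all tested genes, 1.09% passed it as higher and 0.436% as lower with rFGF4, which is 165 and 66 genes. *Fzd4* alone, 1 of the 22 tested members, had an unadjusted p under 0.05, a share close to the 4.62% of all tested genes. The share of all genes with an adjusted p under 0.05 (Benjamini-Hochberg over the 15150 genes in limma) was 0, the smallest adjusted p being 0.918, and no member reached it. In 0 members did the 4 rFGF4 values all lie above or all below the 4 vehicle values, against 2.66% of all tested genes above and 0.667% below. A two-sided exact permutation test, whose smallest possible p is 0.0286 with 70 arrangements of 4 against 4, was run for the 34 members above 0.1 FPKM in 4 or more libraries and gave 0 with p under 0.05.

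The direction of the fitted differences followed that of the whole table. A positive log2 fold change, higher with rFGF4, was found for 15 of the 22 tested members (68.2%) and for 67.1% of all tested genes. The median log2 fold change was 0.13 for the members and 0.09 for all tested genes. This centre depends on the scale. With each library scaled to the same summed FPKM, as in TPM, the median of all genes was 0.295 and that of the members 0.321, with 647 higher and 39 lower genes at the threshold, and with libraries scaled to a common median ratio the medians were -0.01 for all genes and 0.05 for the members, with 93 higher and 81 lower genes. No member passed the threshold on any of the 3 scales.

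**Figure D2:**
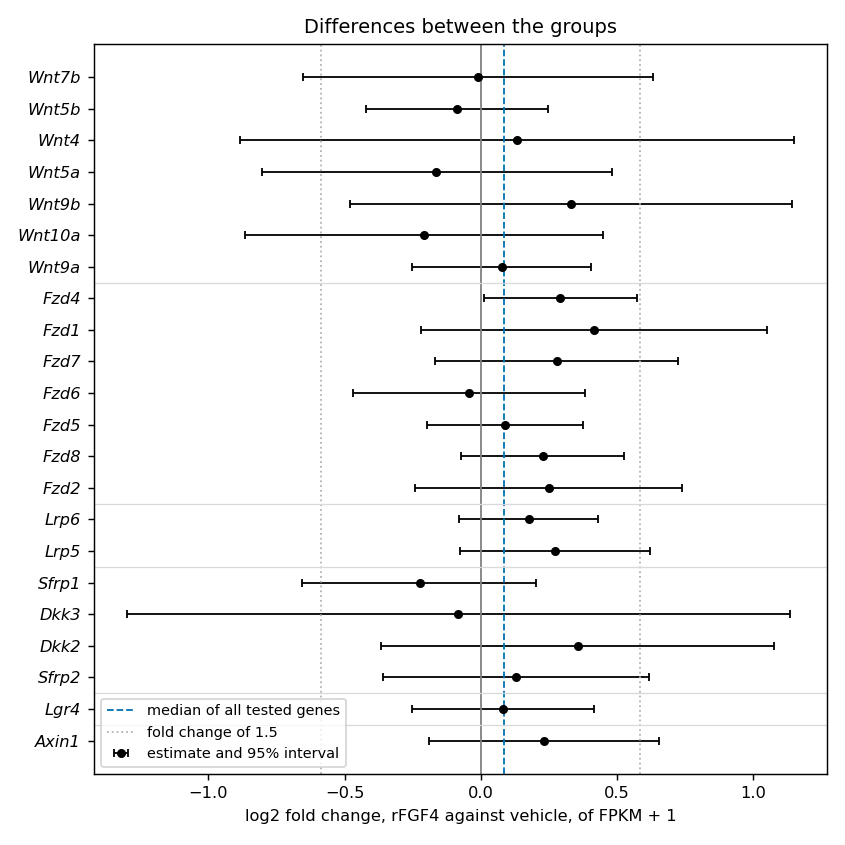
Fitted log2 fold change of FPKM + 1 (rFGF4 against vehicle) with its 95% interval for each tested member, n = 4 mice a group. The blue dashed line marks the median of all tested genes (0.09) and the grey dotted lines a fold change of 1.5; the interval of Fzd4 alone excludes 0, and it does not reach the dotted line.

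Frizzled receptors are the membrane receptors that WNT ligands bind first. Their log2 fold changes were positive for 6 of the 7 tested receptors (85.7%), with a median of 0.25 and *Fzd6* as the exception, although *Fzd5* also fell below 0 on the common median ratio scale. Only 1 of them, *Fzd4*, had an unadjusted p under 0.05. *Fzd4* (ENSMUSG00000049791, chromosome 7, 89404355 to 89413134 on the plus strand of GRCm38) encodes the receptor for norrin as well as WNT ligands and is known for its part in vessel growth. It stood at 19.5, 21.9, 19.0 and 16.7 FPKM in rFGF4-treated mice 1, 2, 3 and 5 and at 17.4, 15.5, 15.9 and 13.5 FPKM in vehicle-treated mice 2, 3, 4 and 5. The groups overlapped in a single pair, rFGF4 mouse 5 lying below vehicle mouse 2. The means were 19.3 ± 2.14 and 15.6 ± 1.58 FPKM (SD, n = 4 each), a log2 fold change of 0.29 (standard error 0.12, 95% interval 0.01 to 0.57) with an unadjusted p of 0.0439 and an adjusted p of 0.918 in limma. The exact permutation test gave p = 0.0571. Without rFGF4 mouse 1, 2 or 3, or vehicle mouse 3, 4 or 5, the unadjusted p in limma no longer lay under 0.05, and over the 8 fits that left out 1 mouse each it ran from 0.0244 to 0.125 while the log2 fold change stayed between 0.230 and 0.355. On the common median ratio scale the log2 fold change was 0.167 (unadjusted p = 0.328 in limma).

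*Fzd1* (ENSMUSG00000044674, chromosome 5, 4753839 to 4758035, minus strand) had the largest log2 fold change of any tested member on the scale log2(FPKM + 1). With 0.1 FPKM added in place of 1, *Wnt9b* lay above it (0.633 against 0.452). In the same order of mice *Fzd1* was at 18.4, 14.5, 11.8 and 10.7 FPKM with rFGF4 and at 9.54, 5.78, 11.4 and 15.2 FPKM with vehicle. The high vehicle value belonged to mouse 5 and the low one to mouse 3, so that the groups overlapped. The log2 fold change was 0.41 (standard error 0.28, 95% interval -0.22 to 1.05; exact permutation p = 0.257). With vehicle mouse 5 left out it was 0.604 with an unadjusted p of 0.0490 in limma, which passes the study's threshold, and without vehicle mouse 3 it was 0.184.

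The remaining Frizzled receptors lay lower. *Fzd7*, a receptor used widely by stem and progenitor cells, was at 7.41, 5.80, 4.79 and 3.99 FPKM with rFGF4 and at 3.26, 4.87, 4.01 and 5.11 FPKM with vehicle (log2 fold change 0.28, standard error 0.19). Its highest 2 values were those of rFGF4 mice 1 and 2, and the other mice of both groups were mixed, with a log2 fold change of 0.145 once rFGF4 mouse 1 was left out. *Fzd6*, best known from planar polarity, was at 5.66, 3.58, 2.72 and 4.24 FPKM with rFGF4 and at 4.13, 4.71, 3.67 and 3.92 FPKM with vehicle (log2 fold change -0.04, standard error 0.19). Its vehicle values all lay inside the range of the treated ones. *Fzd5* was at 2.73, 2.28, 2.61 and 2.32 FPKM with rFGF4 and at 2.55, 1.79, 2.39 and 2.42 FPKM with vehicle (log2 fold change 0.09, standard error 0.12, and 0.012 without vehicle mouse 3).

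*Fzd8* was at 2.85, 2.08, 2.20 and 2.03 FPKM with rFGF4 and at 1.81, 1.87, 1.48 and 2.08 FPKM with vehicle. Vehicle mouse 5 lay among the treated values while the other 3 vehicle mice lay below all treated ones. The log2 fold change was 0.23 (standard error 0.13, exact permutation p = 0.0857), or 0.149 without rFGF4 mouse 1. *Fzd2*, a receptor for Wnt5a, was at 2.001, 1.17, 1.03 and 1.28 FPKM with rFGF4 and at 0.705, 0.928, 0.599 and 1.88 FPKM with vehicle. Here too vehicle mouse 5 alone stood among the treated values, and the log2 fold change was 0.25 (standard error 0.21; exact permutation p = 0.286). Without vehicle mouse 5 it was 0.430 with an unadjusted p of 0.0369 in limma, at a fold change under 1.5. Without rFGF4 mouse 1 it was 0.130. *Fzd3*, with 0.303 to 0.577 FPKM, *Fzd9*, with 0 to 0.0953 FPKM, and *Fzd10*, with 0 to 0.0626 FPKM, were too low for the test across all genes.

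**Figure D3:**
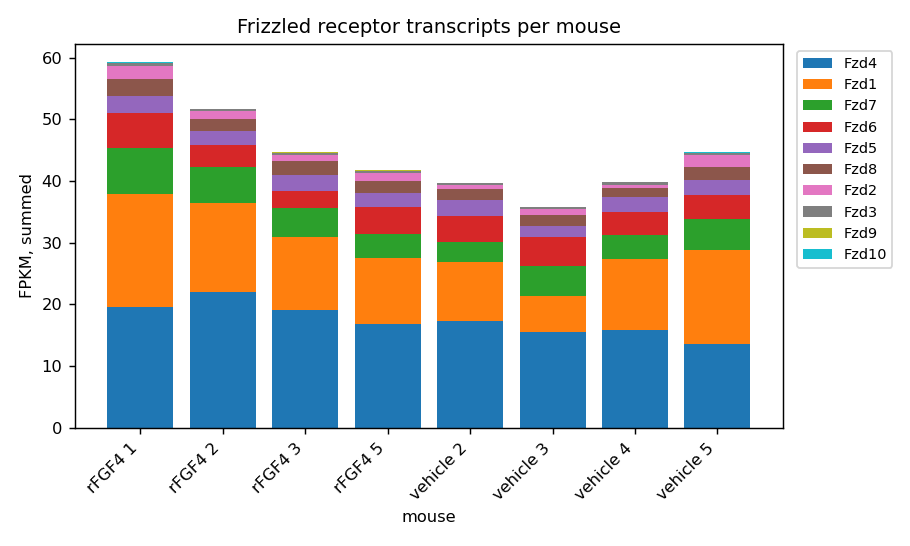
Summed FPKM of the 10 Frizzled receptors in each of the 8 mice, stacked by receptor. Fzd4 and Fzd1 at the bottom make up 59.5 to 70.5% of every bar, and the bars run from 41.8 to 59.3 FPKM with rFGF4 and from 35.8 to 44.6 FPKM with vehicle.

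As a family, Frizzled transcripts summed to 59.3, 51.7, 44.7 and 41.8 FPKM in the rFGF4-treated mice and to 39.7, 35.8, 39.9 and 44.6 FPKM in the vehicle-treated mice. The means were 49.3 ± 7.81 and 40.0 ± 3.63 FPKM (SD, n = 4 each), and only vehicle mouse 5 overlapped the treated range. These sums were taken on the FPKM scale alone. The highest was that of rFGF4 mouse 1, which was highest for 48.1% of all tested genes. *Fzd4* and *Fzd1* had similar mean shares of the sum in both groups. *Fzd4* contributed 39.5% ± 4.54 of the Frizzled FPKM with rFGF4 and 39.3% ± 6.24 with vehicle, and *Fzd1* contributed 27.8% ± 2.38 and 25.7% ± 7.59 (SD, n = 4 each).

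Promoter sequences were read from RefSeq on GRCm38.p6 for 32 of the 50 members, taking the 250 bases before the annotated start of transcription. *Fzd4* is shown as the member with the smallest p, *Fzd7* as the one with a TCF/LEF match among the 11 tested members that had a promoter to search, and *Axin2* as the textbook target of beta-catenin. Capitals mark GC boxes (GGGCGG on either strand, so also CCGCCC) and, in *Fzd7*, the TCF/LEF match AACAAAG. They lie at chr7:89404116-89404365 (*Fzd4*), chr1:59481897-59482146 (*Fzd7*) and chr11:108920099-108920348 (*Axin2*), all on the plus strand and written 5′ to 3′.
Fzd4: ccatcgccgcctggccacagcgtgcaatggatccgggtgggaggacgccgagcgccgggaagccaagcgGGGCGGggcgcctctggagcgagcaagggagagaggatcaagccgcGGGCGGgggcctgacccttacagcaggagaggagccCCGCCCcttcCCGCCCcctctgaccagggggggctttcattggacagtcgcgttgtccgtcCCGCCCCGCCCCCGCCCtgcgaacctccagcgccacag
Fzd7: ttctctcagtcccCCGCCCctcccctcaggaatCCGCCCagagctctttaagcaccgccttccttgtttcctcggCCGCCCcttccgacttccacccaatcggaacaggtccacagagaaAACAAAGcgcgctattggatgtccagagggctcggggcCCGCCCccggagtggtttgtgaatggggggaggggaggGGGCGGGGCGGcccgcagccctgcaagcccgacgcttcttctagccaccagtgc
Axin2: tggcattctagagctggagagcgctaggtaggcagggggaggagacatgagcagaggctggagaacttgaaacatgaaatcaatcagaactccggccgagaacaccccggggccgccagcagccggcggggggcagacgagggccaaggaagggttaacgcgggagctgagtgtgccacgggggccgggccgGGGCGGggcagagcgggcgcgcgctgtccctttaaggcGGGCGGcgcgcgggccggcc
The *Fzd4* promoter held 7 GC boxes, that of *Fzd7* held 6 and that of *Axin2* held 2, some of them overlapping. The TCF/LEF search took CTTTG with 2 further letters, each of which had to be an adenine or a thymine, on both strands. It found a match in 3 of the 32 member promoters (9.38%), those of *Dkk1*, *Fzd7* and *Wnt11*, and in 13.3% of the 17491 promoters of protein-coding genes. The match in *Fzd7* begins 130 bases before the start and lies on the minus strand. A GC box was found in 23 of the 32 (71.9%) against 42.7% of all promoters, the letters TATAAA in 15.6% against 12.4%, and CCAAT in 34.4% against 36.3%. Member promoters thus held the GC box in a larger share than promoters at large and the other motifs in similar shares, as a description without a test. The promoters shown had a GC content of 72.8% (*Fzd4*), 65.2% (*Fzd7*) and 69.2% (*Axin2*), against a median of 55.2% over all promoters. The part of base composition in the GC box share was not tested.

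The LRP co-receptors, which join a Frizzled receptor to form the canonical signalling complex, had higher group means with rFGF4 without passing the test, and their log2 fold changes were smaller on the common median ratio scale (0.059 for *Lrp6* and 0.169 for *Lrp5*). *Lrp6* was at 8.48, 9.49, 8.30 and 7.96 FPKM with rFGF4 and at 7.15, 6.82, 8.46 and 7.44 FPKM with vehicle. Vehicle mouse 4 alone lay within the treated range, and the log2 fold change was 0.18 (standard error 0.11; exact permutation p = 0.0857). *Lrp5*, which norrin signalling through *Fzd4* also uses, was at 4.99, 3.92, 4.50 and 3.49 FPKM with rFGF4 and at 3.84, 2.56, 3.18 and 3.76 FPKM with vehicle. rFGF4 mouse 5 lay among the vehicle values and the other 3 treated mice above them all, and the log2 fold change was 0.27 (standard error 0.15; exact permutation p = 0.114).

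WNT ligands as a group showed no common direction. Of the 7 that were tested, 3 had a positive and 4 a negative log2 fold change, with a median of -0.01, and none had an unadjusted p under 0.05. Summed over all 19, ligand transcripts came to 10.4 ± 5.44 FPKM with rFGF4 and 9.91 ± 3.25 FPKM with vehicle (SD, n = 4 each), the highest sums being 18.4 FPKM in rFGF4 mouse 1 and 13.5 FPKM in vehicle mouse 5. *Wnt7b* and *Wnt5b* were the most abundant. *Wnt7b* (ENSMUSG00000022382, chromosome 15, 85535437 to 85582473, minus strand), the medullary ligand, was at 3.60, 2.15, 1.33 and 2.48 FPKM with rFGF4 and at 4.25, 1.67, 1.61 and 2.29 FPKM with vehicle. Each group had 1 mouse well above the rest, treated mouse 1 and vehicle mouse 2, and the log2 fold change was -0.01 (95% interval -0.65 to 0.63). *Wnt5b*, a mainly non-canonical ligand, was at 1.54, 1.46, 2.06 and 2.09 FPKM with rFGF4 and at 1.48, 1.93, 2.41 and 2.05 FPKM with vehicle (log2 fold change -0.09, standard error 0.15, from -0.171 without vehicle mouse 2 to -0.018 without vehicle mouse 4).

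Among the 7 tested ligands, those of nephron formation had the largest SD relative to the mean in both groups. *Wnt4* (ENSMUSG00000036856, chromosome 4, 137277489 to 137299726, plus strand), which is also known from renal fibrosis, was at 3.76, 1.29, 0.364 and 0.358 FPKM with rFGF4 and at 0.550, 1.04, 0.351 and 2.26 FPKM with vehicle. The highest value of each group belonged to rFGF4 mouse 1 and vehicle mouse 5, and the SD exceeded the mean in the treated group (1.44 ± 1.60 FPKM, n = 4, against 1.05 ± 0.856 FPKM with vehicle). The log2 fold change was 0.13 (standard error 0.44), and it was -0.255 without rFGF4 mouse 1 and 0.385 without vehicle mouse 5. *Wnt9b* (ENSMUSG00000018486, chromosome 11, 103727364 to 103749821, minus strand) was at 3.10, 0.786, 0.489 and 0.522 FPKM with rFGF4 and at 1.43, 0.391, 0.275 and 0.538 FPKM with vehicle. Its log2 fold change of 0.33 (standard error 0.35) rested on rFGF4 mouse 1, without which it was -0.009.

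The other tested ligands stayed under 2 FPKM in every mouse. *Wnt5a*, the main non-canonical ligand, was at 1.59, 0.489, 0.478 and 0.937 FPKM with rFGF4 and at 1.71, 0.776, 0.341 and 1.69 FPKM with vehicle (log2 fold change -0.16, standard error 0.28, from -0.365 without vehicle mouse 4 to -0.027 without vehicle mouse 2). *Wnt10a*, a canonical ligand, was at 1.36, 0.712, 0.303 and 0.210 FPKM with rFGF4 and at 0.446, 0.911, 0.429 and 1.87 FPKM with vehicle (log2 fold change -0.21, standard error 0.29). *Wnt9a* was at 1.29, 0.648, 0.719 and 0.570 FPKM with rFGF4 and at 0.737, 0.677, 0.533 and 0.848 FPKM with vehicle (log2 fold change 0.08, standard error 0.14). For all 3 the groups overlapped. The log2 fold change of *Wnt10a* was 0.007 without vehicle mouse 5, and that of *Wnt9a* was -0.044 without rFGF4 mouse 1.

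Of the 12 ligands below the limit, *Wnt2b* was the highest, at 0.325, 0.268, 0.271 and 0.361 FPKM with rFGF4 and 0.170, 0.203, 0.295 and 0.204 FPKM with vehicle. Vehicle mouse 4 alone reached the treated range (exact permutation p = 0.0857). *Wnt11* ran from 0 to 0.410 FPKM over the 8 mice, *Wnt2* from 0.0754 to 0.250, *Wnt7a* from 0 to 0.449, *Wnt16* from 0 to 0.384, *Wnt8b* from 0.0291 to 0.307 and *Wnt10b* from 0 to 0.501 FPKM. *Wnt6* reached at most 0.192 FPKM, *Wnt3a* 0.0181 and *Wnt3* 0.0157 FPKM, the last being above 0 in vehicle mouse 5 alone. How many fragments stand behind values this low is unknown, so no difference between mice in this range can be read as one.

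Among the secreted antagonists *Sfrp1* had the highest mean, with 34.2 to 74.4% of the summed antagonist FPKM in a mouse, and in rFGF4 mouse 1 it lay below *Dkk3* (37.8%). *Sfrp1* (ENSMUSG00000031548, chromosome 8, 23411502 to 23449632, plus strand), which binds WNT ligands, was at 15.2, 22.0, 25.3 and 24.4 FPKM with rFGF4 and at 21.5, 31.6, 23.7 and 24.8 FPKM with vehicle. It was the tested member with the lowest log2 fold change on the scale log2(FPKM + 1), -0.23 (standard error 0.19, 95% interval -0.65 to 0.20, exact permutation p = 0.429). The groups overlapped apart from the lowest value in rFGF4 mouse 1 and the highest in vehicle mouse 3. Without rFGF4 mouse 1 the log2 fold change of *Sfrp1* was -0.071. With 0.1 FPKM added in place of 1, that of *Wnt10a* was -0.491.

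*Dkk3* (ENSMUSG00000030772, chromosome 7, 112116017 to 112159057, minus strand) is a divergent DKK family member released by stressed tubule cells. It was at 16.8, 10.2, 3.68 and 3.42 FPKM with rFGF4 and at 5.33, 5.71, 5.66 and 17.3 FPKM with vehicle. The group means were all but equal, 8.52 ± 6.35 and 8.49 ± 5.86 FPKM (SD, n = 4 each), while vehicle mouse 5 stood far above the other 3 vehicle mice and treated mice 1 and 2 above treated mice 3 and 5. On the scale log2(FPKM + 1), the log2 fold change was -0.08 (standard error 0.53), the widest error of any tested member on that scale. The log2 fold change ran from -0.467 without rFGF4 mouse 1 to 0.287 without vehicle mouse 5.

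*Dkk2*, which binds LRP5 and LRP6, was at 7.79, 4.97, 3.33 and 2.94 FPKM with rFGF4 and at 1.99, 3.19, 3.04 and 5.60 FPKM with vehicle. The order of the mice resembled that of *Dkk3*, with treated mouse 1 and vehicle mouse 5 at the top, and the log2 fold change was 0.36 (standard error 0.32; exact permutation p = 0.4), or 0.127 without rFGF4 mouse 1 and 0.564 without vehicle mouse 5. *Sfrp2* was at 2.03, 3.06, 1.35 and 1.38 FPKM with rFGF4 and at 1.35, 1.78, 1.24 and 2.28 FPKM with vehicle (log2 fold change 0.13, standard error 0.21). Without rFGF4 mouse 2, its highest mouse, the log2 fold change of *Sfrp2* was -0.035. The other antagonists were below the limit. *Sfrp5* ran from 0 to 2.09 FPKM with its peak in rFGF4 mouse 1, *Sfrp4* from 0 to 1.18 FPKM and *Dkkl1* from 0 to 0.708 FPKM with their peaks in vehicle mouse 5, *Wif1* from 0.143 to 0.960 FPKM with its peak in vehicle mouse 3, and *Dkk1* from 0 to 0.109 FPKM.

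R-spondin transcripts were scarce beside their receptor *Lgr4*. The 4 R-spondins together reached 0.167 ± 0.0790 FPKM with rFGF4 and 0.310 ± 0.368 FPKM with vehicle (SD, n = 4 each). *Rspo3* had the highest mean of them and ran from 0.00910 to 0.503 FPKM, *Rspo1* ran from 0 to 0.343 FPKM, both peaking in vehicle mouse 5, and *Rspo4* reached 0.0213 FPKM in 1 mouse. *Lgr4* (ENSMUSG00000050199, chromosome 2, 109917647 to 110014257, plus strand) was at 20.5, 25.7, 22.8 and 21.4 FPKM with rFGF4 and at 24.4, 20.9, 24.0 and 16.6 FPKM with vehicle. The lowest level was that of vehicle mouse 5 and the other 7 mice lay close together (log2 fold change 0.08, standard error 0.15, and -0.031 without that mouse). *Lgr5*, the stem cell marker, stayed at or under 0.0937 FPKM and *Lgr6* at or under 0.305 FPKM.

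The Axins form the scaffold of the beta-catenin destruction complex, and *Axin2* is itself switched on by beta-catenin. *Axin1* was at 13.3, 11.8, 9.08 and 7.72 FPKM with rFGF4 and at 9.25, 7.16, 8.14 and 10.1 FPKM with vehicle (log2 fold change 0.23, standard error 0.18). The 2 highest values were those of treated mice 1 and 2 and the rest were mixed, and without rFGF4 mouse 1 the log2 fold change was 0.117. *Axin2* (ENSMUSG00000000142, chromosome 11, 108920349 to 108950783, plus strand) was at 1.18, 0.478, 0.178 and 0.464 FPKM with rFGF4 and at 0.353, 0.201, 0.203 and 1.47 FPKM with vehicle. It passed 1 FPKM in rFGF4 mouse 1 and vehicle mouse 5 alone, and no difference between the groups was detectable (exact permutation p = 0.8286).

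The differences between mice of the same group followed a pattern that crosses treatment. rFGF4 mouse 1 and vehicle mouse 5 held the 2 highest values for 7 of the 22 tested members (31.8%), namely *Wnt4*, *Wnt10a*, *Wnt9a*, *Fzd1*, *Fzd2*, *Dkk3* and *Dkk2*, and for 32.0% of all tested genes, so the members shared in a pattern of the whole table. The same pair was highest for 8 of the 24 untested members that were above 0 in some library (33.3%), which are *Wnt7a*, *Wnt16*, *Wnt10b*, *Fzd10*, *Sfrp5*, *Dkkl1*, *Rspo3* and *Axin2*. The share among untested genes of the whole table was not taken, so this value has no background of its own. rFGF4 mouse 1 alone was highest for 12 of the 22 tested members, as it was for 48.1% of all tested genes. With both mice left out, an alternative chosen after seeing the data, no member passed the threshold, the median log2 fold change was 0.04 for the members and 0.07 for all genes, and *Fzd2* was the only member with an unadjusted p under 0.05 in limma.

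**Figure D4:**
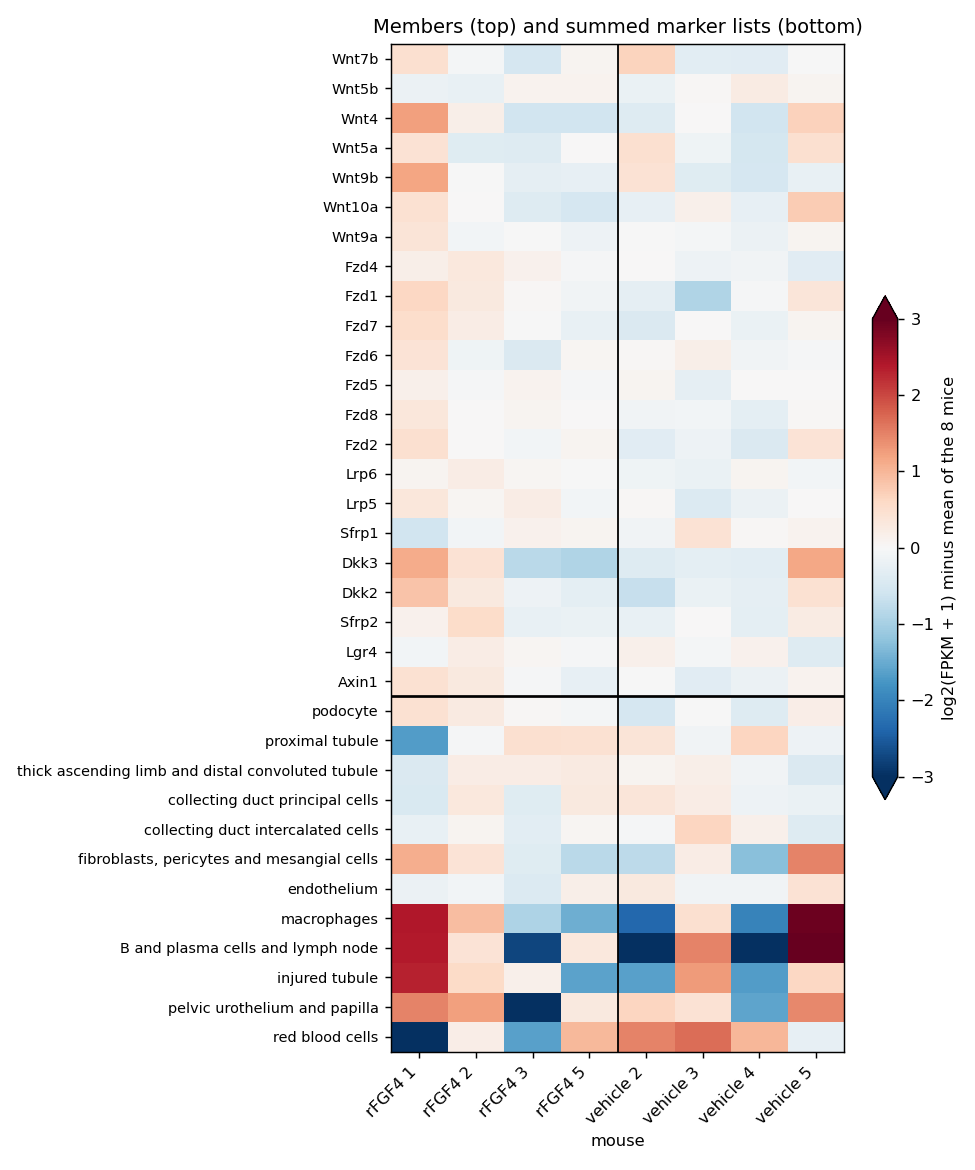
Deviation of each mouse from the mean of the 8 mice on the scale log2(FPKM + 1), for the 22 tested members above the thick line and for the summed FPKM of 12 marker lists below it; red is higher, blue is lower and the colours end at 3 either way. rFGF4 mouse 1 and vehicle mouse 5 are the reddest columns for macrophage and fibroblast markers (1198 and 1728 FPKM summed for macrophages) and for members such as Dkk3 and Wnt4.

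Several marker sums, though not all, were the highest or lowest of their group in the same mice. Summed macrophage transcripts (6 genes, led by *Lyz2* and *C1qb*) ran from 80.3 to 1198 FPKM with rFGF4 and from 43.3 to 1728 FPKM with vehicle, those of fibroblasts, pericytes and mesangial cells (9 genes, led by *Acta2* and *Tagln*) from 48.1 to 181 and from 35.2 to 239 FPKM, with the highest value of each group in rFGF4 mouse 1 and vehicle mouse 5. B cell, plasma cell and lymph node transcripts (8 genes, led by *Igkc* and *Jchain*) ran from 77.3 to 2732 and from 26.8 to 22970 FPKM with the same 2 mice at the top. Injured tubule transcripts (6 genes, led by *Spp1* and *Lcn2*) ran from 738 to 11163 and from 701 to 5434 FPKM, highest in rFGF4 mouse 1 and vehicle mouse 3. Proximal tubule transcripts (6 genes, led by *Slc34a1* and *Slc22a6*) ran the other way, from 247 to 1109 FPKM with rFGF4, the lowest in mouse 1, and from 708 to 1237 FPKM with vehicle. The part of these cells in the values of the members was not tested.

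Nephron markers of the labelled tissue, kidney, were present in all libraries, and no marker list had a gene at 0 in every mouse. Summed levels of the other lists, with rFGF4 and then with vehicle, were 48.6 to 69.1 and 35.2 to 57.9 FPKM for podocytes (4 genes, *Podxl* highest), 961 to 1559 and 966 to 1482 FPKM for thick ascending limb and distal convoluted tubule (*Umod* and *Slc12a1*), 226 to 383 and 272 to 398 FPKM for principal cells (*Aqp2* and *Hsd11b2*), 66.3 to 87.5 and 63.3 to 131 FPKM for intercalated cells (*Atp6v1g3* and *Foxi1*), 24.4 to 37.1 and 30.3 to 44.8 FPKM for endothelium (*Emcn* and *Pecam1*), 1.13 to 88.6 and 9.71 to 85.8 FPKM for pelvic urothelium and papilla (*Krt5* and *Krt15*), and 120 to 2657 and 1139 to 4325 FPKM for red blood cells (*Hba-a2* and *Hbb-bs*). *Synpo*, a podocyte actin-binding protein, was the only marker past the study's threshold, at 3.93 ± 1.79 against 1.57 ± 0.475 FPKM (SD, n = 4 each; log2 fold change 0.87, adjusted p = 0.918 in limma). It no longer passed without rFGF4 mouse 2 (0.688) or 5 (0.764) or without vehicle mouse 3 (0.764). Library sums ran from 389407 FPKM in rFGF4 mouse 1 to 552604 FPKM in vehicle mouse 2, and mitochondrial transcripts made up 19.0 to 36.0% of them with rFGF4 and 24.4 to 38.4% with vehicle. Within their groups, rFGF4 mouse 1 and vehicle mouse 5 had the lowest library sum and the lowest mitochondrial share. Their podocyte and urothelium sums were the highest, and their thick ascending limb, principal cell and red blood cell sums the lowest.

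Beyond the module, 82 other genes of the pathway were followed in 7 lists, and 70 of them were tested. A single gene, *Vangl1*, passed the study's threshold as higher and 0 as lower, 2 had an unadjusted p under 0.05, and the median log2 fold change was 0.15, with 56 positive and 14 negative. Over all tested genes 1.09% passed as higher, 4.62% had an unadjusted p under 0.05 and 67.1% were positive. *Vangl1*, a planar polarity membrane protein, was at 4.12, 2.92, 2.92 and 2.46 FPKM with rFGF4 and at 1.47, 2.52, 2.28 and 0.842 FPKM with vehicle. The 2 groups overlapped only where rFGF4 mouse 5 lay below vehicle mouse 3, and the log2 fold change was 0.59 (standard error 0.23, unadjusted p = 0.0316 and adjusted p = 0.918 in limma; exact permutation p = 0.0571). It no longer passed on the common median ratio scale (0.486) or without rFGF4 mouse 1 (0.481), 2 (0.610) or 3 (0.609) or vehicle mouse 2 (0.551) or 5 (0.410), and without both rFGF4 mouse 1 and vehicle mouse 5 it was 0.298. *Csnk1a1*, the casein kinase that primes beta-catenin for destruction, was at 13.5, 12.7, 11.5 and 8.87 FPKM with rFGF4 and at 8.19, 8.04, 8.40 and 10.5 FPKM with vehicle. Again a single pair, rFGF4 mouse 5 and vehicle mouse 5, was out of order (log2 fold change 0.36, standard error 0.15, unadjusted p = 0.0459 and adjusted p = 0.918 in limma; exact permutation p = 0.0571). Its unadjusted p stayed under 0.05 only without rFGF4 mouse 5 or vehicle mouse 5 among the fits that left out 1 mouse, where it ran from 0.00935 to 0.112. With each library scaled to the same summed FPKM it passed the threshold (0.594).

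The other lists held no gene past the threshold and none with an unadjusted p under 0.05. Of 3 genes of WNT production and release, 1 was positive and 2 negative, and the highest, the WNT carrier *Wls*, had 12.04 ± 1.495 against 11.1 ± 0.432 FPKM. Of 6 tested antagonists and partners outside the module, 4 were positive, and the highest was *Igfbp4*, an IGF-binding protein that also hinders WNT receptors, with 235 ± 67.1 against 146 ± 64.8 FPKM (log2 fold change 0.80, standard error 0.43; exact permutation p = 0.143, or a log2 fold change of 0.359 without vehicle mouse 2). Of the receptor-removing ligases *Rnf43* and *Znrf3* both were positive, *Znrf3* at 1.27 ± 0.649 against 0.960 ± 0.164 FPKM, although *Znrf3* was at -0.006 on the log2 scale without rFGF4 mouse 1. Of 14 tested partners of beta-catenin in the nucleus, 11 were positive, and the corepressor *Ctbp1* was highest, at 23.1 ± 5.32 against 19.9 ± 3.82 FPKM. Of 19 tested target genes, 16 were positive at a median of 0.28 on the log2 scale, and the highest, *Id2*, had 80.1 ± 11.9 against 67.1 ± 17.9 FPKM (all SD, n = 4 each). Without rFGF4 mouse 1, 10 of the 19 target genes (median 0.033) and 6 of the 14 nuclear partners (median -0.044) were positive. The median of all tested genes was 0.010 in that fit. Without vehicle mouse 5, 17 target genes (0.373) and 11 nuclear partners (0.171) were positive, beside 0.146 for all genes. Without both mice, 15 target genes (0.312) and 8 nuclear partners (0.039) were positive, beside 0.074 for all genes. The planar polarity list had 10 of 13 tested genes positive with a median of 0.09, and the Dishevelled and destruction complex list 12 of 13 with a median of 0.11. Without rFGF4 mouse 1 the medians of these lists were 0.034 and 0.051, with 7 and 10 positive. Without both rFGF4 mouse 1 and vehicle mouse 5 they were 0.051 and 0.044, with 10 and 11 positive. *Ctnnb1*, which encodes beta-catenin itself and is named here after its values were seen, was at 94.6, 66.4, 59.5 and 53.0 FPKM with rFGF4 and at 53.5, 51.5, 50.8 and 64.1 FPKM with vehicle (log2 fold change 0.28, standard error 0.19; exact permutation p = 0.200; 0.116 without rFGF4 mouse 1). As in much of the module, rFGF4 mouse 1 was the highest treated and vehicle mouse 5 the highest vehicle kidney.

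Some of these levels carry a limit of annotation. Exons of *Wnt7b*, *Wnt5a*, *Wnt11*, *Fzd6*, *Fzd5*, *Sfrp2*, *Rspo3* and *Axin2* overlap a gene on the other strand in GENCODE M21. The sources used here do not state whether counting used strand, so reads of the overlapping genes cannot be told apart there.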

How the data were processed

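Per the labels, the submitters' processing notes list Bowtie 0.12.2, HISAT2 2.0 and StringTie 1.3.0 and the build mm8, without their roles. The methods describe StringTie assembly, merging with Gffcompare and quantification, and the authors deposited FPKM per gene under Ensembl identifiers, in which 0.0001 stands in place of 0. The deposited columns of fold change, its log2, p-value, q-value and direction hold the authors' edgeR comparison and were not used. Replicates were not pooled. The methods name edgeR, which needs counts, so log2(FPKM + 1) of genes with at least 0.5 FPKM in 4 or more libraries was compared with limma 3.58.1 in R 4.3.3 (trend in the prior variance, Benjamini-Hochberg adjustment over 15150 genes), without covariates, and the study's threshold was applied. The procedure was tested on simulated data. Single members were compared with two-sided exact permutation tests.

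Groups came from the labels. The members, the 7 pathway lists and the 12 marker lists were chosen with earlier results of these data known. Some genes of the podocyte list are not reported here and were left out of its sum. Every member was named, with each library's value where its mean was at least 0.5 FPKM. Of the pathway lists, genes past the threshold or with an unadjusted p under 0.05 were named, and otherwise the gene with the highest mean, and of the marker lists the 2 highest genes (1 for podocytes) and any past the threshold. *Wnt2b* was also given per library, after its values were seen. Coordinates came from GENCODE M21 on GRCm38, where all 50 members matched by identifier; no coordinate was read from the files. Alternatives were a pseudocount of 0.1, no filter, scaling to an equal summed FPKM (as in TPM) or to a common median ratio, a block for mouse number, p alone, and each mouse left out. Python 3.11.15 with matplotlib 3.10.9 drew the figures.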

Additional observations from a re-analysis of the deposited data

Results flagged for a closer look

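A single value stood apart from its group. *Dkk3* in vehicle mouse 5, at 17.3 FPKM, lay far above the other 3 vehicle mice at 5.33 to 5.71 FPKM, and its gap to the nearest of them made up 0.9445 of the range of the group on the scale log2(FPKM + 1), above the 95% critical value of Dixon's test for 4 samples. In the same library the macrophage and fibroblast marker sums were the highest of the 8 mice, and their part in this value was not tested. The test was run in 58 groups of 4, and chance alone is set to give such a value in about 1 of 20 groups.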

How the results depend on the processing

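The count of genes past the threshold, 231, was 348 with a pseudocount of 0.1 FPKM, 686 with each library scaled to the same summed FPKM and 700 by p alone, and it ran from 187 (without rFGF4 mouse 2) to 575 (without rFGF4 mouse 5), with 432 without vehicle mouse 5; the cause was not tested. The count of members, 0, was 1 by p alone (*Fzd4*) and ran from 0 to 1 over the fits that left out 1 mouse, the 1 being *Fzd1* without vehicle mouse 5. The median log2 fold change of the members stayed positive, from 0.028 to 0.321. Deviations from the group means of mice with the same number correlated at -0.23, -0.16 and -0.39 over genes. Such deviations are tied to one another within a group, so these values cannot decide whether the mouse numbers pair the samples. With the replicate block, rFGF4 mouse 1 and vehicle mouse 4 had no partner of the same number and so added nothing to the fold changes. In that fit 262 genes and 0 members passed. *Wnt5a* was at -0.534 with an unadjusted p of 0.0434 in limma, and *Fzd4* at 0.296 with a p of 0.110. The pathway genes *Vangl1* and *Csnk1a1* were at 0.576 (p of 0.0579) and 0.271 (p of 0.294). The sign changed for 4 members, *Wnt5b* (0.025), *Wnt4* (-0.427), *Wnt9b* (-0.120) and *Wnt9a* (-0.092). Without rFGF4 mouse 1 alone, *Wnt4* (-0.255), *Wnt9b* (-0.009) and *Wnt9a* (-0.044) also turned, while *Wnt5b* did not (-0.045). The effect of the block cannot be told apart from that of losing these mice. Scaling to the same sum turned *Wnt7b* (0.179), *Wnt5b* (0.070), *Fzd6* (0.151) and *Dkk3* (0.117), and the common median ratio turned *Fzd5* (-0.004) and *Lgr4* (-0.044) and took *Fzd4* to 0.167. Without both rFGF4 mouse 1 and vehicle mouse 5, *Wnt4* (-0.004), *Wnt9b* (-0.030) and *Wnt9a* (-0.002) turned. Over the fits without 1 mouse, log2 fold changes that changed sign ran from -0.170 to 0.211 for *Wnt7b*, -0.255 to 0.385 for *Wnt4*, -0.009 to 0.531 for *Wnt9b*, -0.398 to 0.007 for *Wnt10a*, -0.044 to 0.139 for *Wnt9a*, -0.189 to 0.091 for *Fzd6*, -0.467 to 0.287 for *Dkk3*, -0.035 to 0.236 for *Sfrp2* and -0.031 to 0.145 for *Lgr4*. Without the filter and with the other pseudocount, all 22 tested members kept their sign and their call in limma. Depth is unknown, so how far it limits the low members cannot be said.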
